A study of Mus musculus with 40 samples.

Results

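The levels of 9 transcription factors that specify microglia and macrophages were followed in myeloid cells sorted from the brains of mice with and without a glioma: Sall1, Sall3, Mef2c, Mef2a, Maf, Irf8, Spi1, Runx1 and Cebpb. They were chosen by name, with earlier results of these data known, as 9 of the 54513 genes in each of the 3 expression tables, of which 21848 are protein-coding. The samples were CD11b+ cells from male mice, 10 to 12 weeks old, which carried GL261 tdTomato+luc+ cells, a mouse glioma line, in C57BL/6 hosts, or U87-MG RFP cells, a human glioblastoma line, in Athymic Nude-Foxn1nu hosts, which lack mature T cells. Cells were injected into the right striatum, and an osmotic pump delivered water or peptide into the tumor until 21 or 28 days post-implantation (DPI). Vehicle was water, 7aaRGD a peptide with the integrin-binding arginine-glycine-aspartate motif, and 7aaRAE a control peptide in which that motif was changed.

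At 21 DPI the GL261 experiment comprised naive mice without a tumor and mice on vehicle, 7aaRGD or 7aaRAE, with 3 samples in each group. The U87-MG experiment at 21 DPI comprised vehicle, 7aaRGD and 7aaRAE, again with 3 samples each; naive nude mice were not analysed here. In both, 2 animals were pooled per sample. At 28 DPI each sample was 1 GL261-bearing animal, with 4 on vehicle, 4 on 7aaRGD, 3 on anti-PD-1, an antibody to the T cell checkpoint receptor PD-1, and 3 on 7aaRGD with anti-PD-1. Anti-PD-1 was given by intraperitoneal injection and not by the pump, and the groups without it received IgG there by the same route. The fourth sample of each anti-PD-1 group was not analysed here. The sample titles call the 28 DPI hosts nude mice and the methods of the study call them C57BL/6, so the strain is given here as stated by each. In all, 35 of the 40 labelled samples had values.

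Values are treated as RPKM, read numbers scaled by exon length and by the mapped reads of a sample. They were obtained by subtracting the constant 2 that the deposited values carry. Read depth is unknown, because no counts were used, and each table was normalized on its own, so levels of different tables are set side by side without a test. Differences were tested with limma on log2(RPKM + 1) over all protein-coding genes whose mean reached 1 RPKM, with a Benjamini-Hochberg adjusted p under 0.05 as the threshold. A difference on this scale understates the change of a gene with a low level. All 9 factors passed the filter in every fit. On this scale the GL261 samples vary within groups along 7 of the 8 possible dimensions at 21 DPI and 9 of 10 at 28 DPI. The U87-MG samples vary along 6 of 6. The GL261 pattern is as when a component of the spread has been removed before deposit, and the adjusted p values of those 2 tables carry that limit. RPKM cannot be under 0, but 3.13 to 8.78% of the values of a sample were after the subtraction. In U87-MG samples these were 3.61 to 8.78%, so none of the 3 tables holds plain RPKM.

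These factors act in layers. PU.1, encoded by Spi1, is an ETS factor that opens myeloid enhancers in all macrophages, and it does so with partners such as IRF8, RUNX1 and C/EBP proteins. In microglia, the resident macrophages of the brain, SALL1 and MEF2 factors act with it to maintain the microglial program under signals of the brain, TGF-β among them, whereas monocytes that enter a tumor and become macrophages lack most of that layer. C/EBPβ and c-MAF are basic leucine zipper factors of macrophage activation and maturation.

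The sorted cells carried myeloid markers. Itgam, which encodes CD11b, lay between 51.2 and 195 RPKM over all 35 samples. The microglial genes Tmem119 and P2ry12 lay at 2065 to 2324 and 1728 to 1745 RPKM in the naive samples, at 155 to 255 and 75.1 to 125 in the 21 DPI GL261 vehicle samples, and at 1182 to 1619 and 691 to 998 in the U87-MG vehicle samples. The monocyte genes Ccr2 and Ly6c2 lay at 5.63 to 5.97 and 0.985 to 1.82 RPKM in the naive samples and at 66.9 to 94.7 and 185 to 325 in the GL261 vehicle samples at 21 DPI. In U87-MG vehicle samples Ccr2 lay between 18.2 and 22.5 RPKM and Ly6c2, which has a near-identical neighbor, Ly6c1, between 1.51 and 2.47. Some sample titles name the glioma line, and others name CD11b+ cells or naive mice. The markers are those of mouse myeloid cells. In bulk samples such as these, fewer cells of a type and less RNA of a gene per cell cannot be told apart.

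The 250 bases upstream of the start are shown for Sall1, Mef2c, Cebpb and Irf8, since PU.1 and other ETS factors read the core GGAA. Sall1 and Mef2c fell in tumor-bearing brain, Cebpb rose, and Irf8 was higher under anti-PD-1. The sequences are those of RefSeq, GRCm38.p6, and capitals mark GGAA or its reverse complement TTCC. Sall3 was not searched for. Of the remaining genes 6 had an entry, and for 5 of these the RefSeq and GENCODE starts were the same. Mef2a was among these 5 and is not shown. Its window holds GGAA or TTCC 3 times.
Sall1, chr8:89044163-89044412, minus strand: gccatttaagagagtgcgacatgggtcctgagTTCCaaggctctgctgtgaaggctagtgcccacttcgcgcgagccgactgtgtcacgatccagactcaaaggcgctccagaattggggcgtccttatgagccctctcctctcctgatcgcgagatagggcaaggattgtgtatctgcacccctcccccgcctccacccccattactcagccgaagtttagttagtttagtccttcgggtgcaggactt
Mef2c, chr13:83503784-83504033, plus strand: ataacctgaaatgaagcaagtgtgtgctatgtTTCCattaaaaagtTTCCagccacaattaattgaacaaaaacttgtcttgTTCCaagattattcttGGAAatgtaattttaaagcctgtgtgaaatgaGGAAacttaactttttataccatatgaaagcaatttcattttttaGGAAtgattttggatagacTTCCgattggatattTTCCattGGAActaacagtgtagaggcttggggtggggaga
Cebpb, chr2:167688665-167688914, plus strand: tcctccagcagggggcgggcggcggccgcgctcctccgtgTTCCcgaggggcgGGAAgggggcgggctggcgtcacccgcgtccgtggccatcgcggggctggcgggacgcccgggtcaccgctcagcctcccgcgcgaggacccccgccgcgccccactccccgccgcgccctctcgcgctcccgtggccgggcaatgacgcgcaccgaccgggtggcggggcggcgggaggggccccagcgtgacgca
Irf8, chr8:120736108-120736357, plus strand: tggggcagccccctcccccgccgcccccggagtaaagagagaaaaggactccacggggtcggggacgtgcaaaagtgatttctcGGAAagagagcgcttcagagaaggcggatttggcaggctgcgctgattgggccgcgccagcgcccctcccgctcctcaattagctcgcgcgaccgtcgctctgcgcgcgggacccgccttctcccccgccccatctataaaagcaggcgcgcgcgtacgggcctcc

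The windows differ in composition. G and C make up 56.4% of the Sall1 window, 33.6% of that of Mef2c, 81.6% of that of Cebpb and 67.2% of that of Irf8. Counted on both strands, GGAA occurs 9 times in the Mef2c window, 2 times in that of Cebpb and 1 time each in those of Sall1 and Irf8. Of the 32841 windows of this length in the RefSeq table, 93.5% hold at least 1 GGAA, with a mean of 2.91 per window. The C/EBP pattern TTNNGNAA occurs 1 time in the Mef2c window and in none of the other 3, against 36.9% of all windows. The RUNX pattern TGTGGT, found in 14% of all windows, occurs in none of the 4. Both strands were searched for each pattern, and overlap between patterns was allowed. A match describes the letters of the window and does not show binding.

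The 9 genes are spread over 6 chromosomes in mm10, by GENCODE vM21. Sall1 lies at chr8:89027235-89044162 on the minus strand, Maf at chr8:115682942-115707794 on the minus strand and Irf8 at chr8:120736358-120756694 on the plus strand. Spi1 lies at chr2:91082390-91115756 and Cebpb at chr2:167688915-167690418, both on the plus strand. Sall3 lies at chr18:80966376-80986771, Mef2a at chr7:67231163-67372858 and Runx1 at chr16:92601466-92826149, all on the minus strand, and Mef2c at chr13:83504034-83667080 on the plus strand. Each gene has 1 value per sample, over all its exons, so isoforms are not told apart.

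The first comparison asked how the factors differ between CD11b+ cells of GL261 gliomas and those of the naive brain. At 21 DPI, 8 of the 9 factors passed the threshold in vehicle against naive samples, 6 of them lower and 2 higher. The background is large, since 82.9% of the 9728 genes tested passed, with 34.6% higher and 48.2% lower, and a count of 8 in 9 is therefore near that of genes at large. All 9 factors had groups without overlap, against 85.4% of all genes. The size of the differences sets the factors apart from each other: the median log2 difference of the 9 was -1.33, against -0.14 over all genes, and single factors ranged from -3.46 for Sall1 to 3.07 for Cebpb. With 2 other scalings of the samples the median of all genes moved to -0.065 and 0.01, and factors with differences near that size are described with those scalings.

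The SALL factors, zinc finger proteins of which SALL1 holds microglia in their resting identity, had the lowest values relative to naive. Sall1 was 281, 291 and 287 RPKM in the 3 naive samples and 27.6, 22.3 and 26.1 in the 3 vehicle samples. Every vehicle sample lay far below every naive one. The mean fell from 286 ± 5.45 to 25.3 ± 2.73 RPKM (SD, n = 3), 8.83% of the naive mean, and the log2 difference was -3.46 ± 0.08 (SE, limma adjusted p = 1.31e-08). Its paralogue Sall3 was 29.6, 31.4 and 28.6 RPKM in naive and 3.35, 3.06 and 3.00 in vehicle samples. It thus fell to 10.5% of the naive mean, with a log2 difference of -2.90 ± 0.06 (SE, limma adjusted p = 9.47e-09). The ratio of Sall3 to Sall1 RPKM was 0.104 ± 0.00425 in naive and 0.125 ± 0.0115 in vehicle samples (SD, n = 3), a little higher in every vehicle sample.

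The MEF2 factors, MADS-box proteins that bind microglial enhancers, fell unequally. Mef2c, known to restrain the inflammatory response of microglia, was 33.3, 33.1 and 31.99 RPKM in naive and 5.08, 3.96 and 5.32 in vehicle samples, a fall to 14.6% with a log2 difference of -2.55 ± 0.09 (SE, limma adjusted p = 9.2e-08). Mef2a was 43.5, 43.7 and 42.9 RPKM in naive and 16.8, 15.7 and 17.6 in vehicle samples. It kept 38.5% of its naive mean, with a log2 difference of -1.33 ± 0.06 (SE, limma adjusted p = 1.97e-07). The naive cells therefore held 0.756 ± 0.00989 RPKM of Mef2c for each RPKM of Mef2a and the vehicle cells 0.286 ± 0.0288 (SD, n = 3), with no overlap between the groups.

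Maf, which encodes c-MAF, was 109, 112 and 115 RPKM in naive and 33.3, 15.6 and 19.5 in vehicle samples. All vehicle samples lay below all naive ones, but the first of them was well above the other two. The mean fell to 20.4% of naive, with a log2 difference of -2.31 ± 0.23 (SE, limma adjusted p = 2.51e-05), and its standard error was the highest among the 9 factors in this comparison.

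The factors shared by all macrophages changed little or not detectably. Irf8, a partner of PU.1 needed for the development of monocytes and microglia, was 106, 103 and 101 RPKM in naive and 77.2, 86.7 and 94.3 in vehicle samples. The vehicle samples lay just under the naive ones, at 83.2% of their mean, with a log2 difference of -0.27 ± 0.08 (SE, limma adjusted p = 0.0114). This call depends on the scaling of the samples: under these scalings the difference was -0.18 (adjusted p = 0.0748) and -0.09 (adjusted p = 0.316). Spi1, which encodes PU.1, was 171, 165 and 154 RPKM in naive and 209, 212 and 218 in vehicle samples. Every vehicle sample was above every naive one, the mean was 130.5% of naive and the log2 difference 0.38 ± 0.06 (SE, limma adjusted p = 0.000376).

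Runx1, a runt-domain factor of blood cell development, was 13.46, 13.79 and 13.45 RPKM in naive and 13.42, 13.02 and 12.76 in vehicle samples. The highest vehicle sample lay just under the lowest naive one. The vehicle mean was 96.3% of naive, and the log2 difference of -0.05 had a 95% interval from -0.16 to 0.06 (limma adjusted p = 0.362). It was the factor that did not pass the threshold, and its sign turned under both other scalings, to 0.03 and 0.11. Cebpb, induced in myeloid cells by inflammatory signals, moved the other way from the microglial factors. It was 62.5, 38.4 and 69.6 RPKM in naive and 495, 440.2 and 474 in vehicle samples, 8.27-fold higher, with a log2 difference of 3.07 ± 0.20 (SE, limma adjusted p = 1.81e-06).

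**Figure D1:**
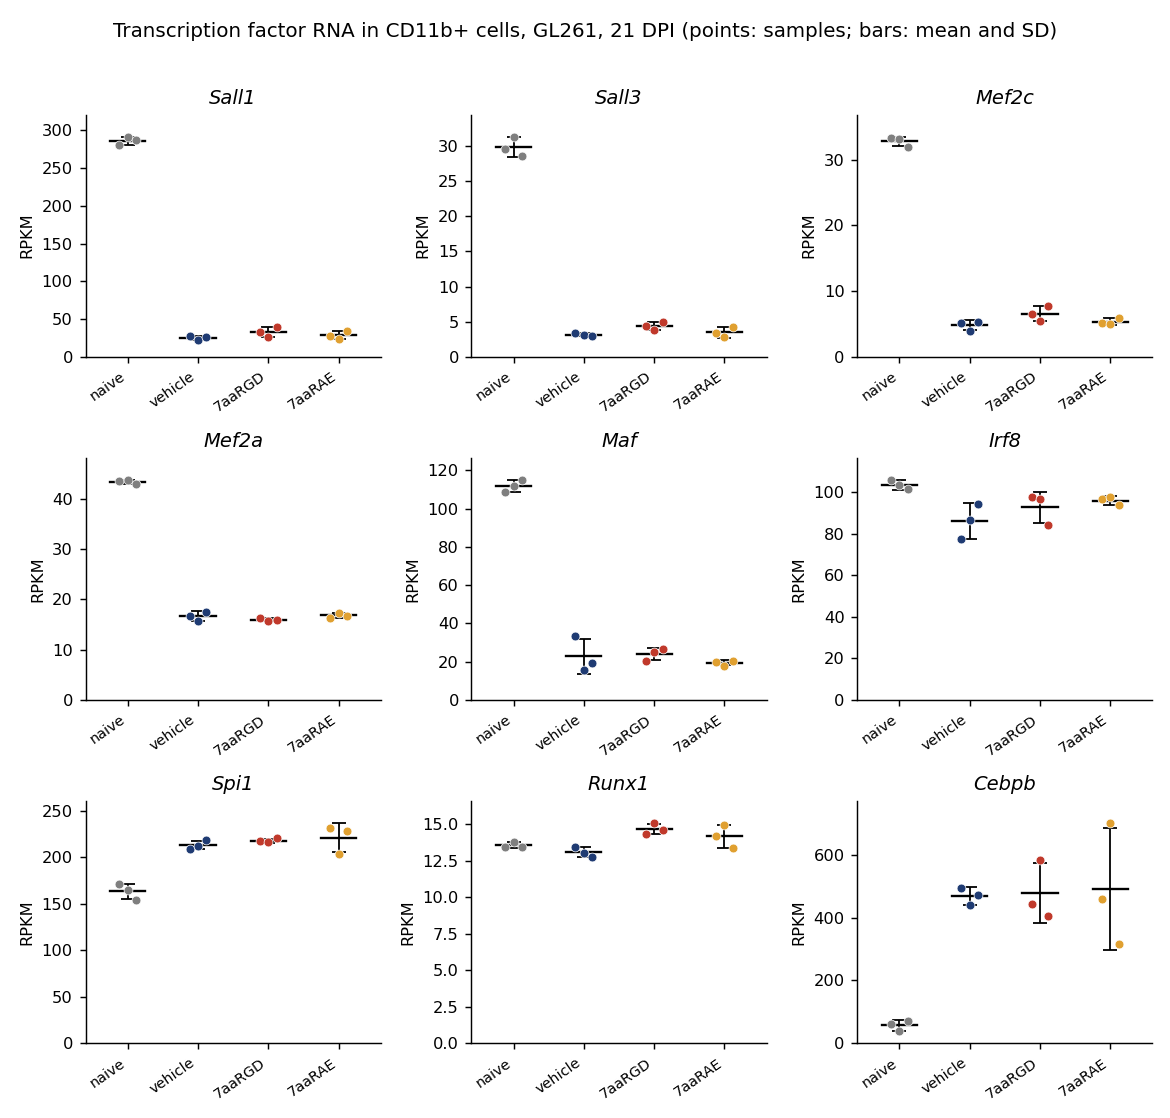
RPKM (y axis, linear, from 0) of the 9 factors in each CD11b+ sample of the GL261 experiment at 21 DPI, by group (x axis: naive, vehicle, 7aaRGD, 7aaRAE); points are samples, lines the mean and bars the SD, n = 3. Sall1, Sall3, Mef2c, Mef2a and Maf are high in the naive samples and low in all 9 tumor-bearing ones, Cebpb is the reverse, and Irf8, Spi1 and Runx1 differ little.

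The order of the levels turned over as a result. In naive cells Sall1 had the highest mean RPKM (286), followed by Spi1 (163), Maf (112), Irf8 (104), Cebpb (56.8), Mef2a (43.4), Mef2c (32.8), Sall3 (29.9) and Runx1 (13.6). Of these neighbors, Cebpb and Mef2a overlapped between samples and the others did not. In vehicle cells Cebpb (470) came first, followed by Spi1 (213), Irf8 (86.1), Sall1 (25.3), Maf (22.8), Mef2a (16.7), Runx1 (13.1), Mef2c (4.79) and Sall3 (3.14). There Sall1 and Maf overlapped, as did Maf and Mef2a.

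Markers of cell types moved with these factors. All 12 homeostatic microglia markers were lower in vehicle samples, with a summed level of 18550 to 19290 RPKM in naive and 1538 to 2246 in vehicle samples. All 12 monocyte and macrophage markers were higher, with a summed level of 69.0 to 76.1 RPKM in naive and 4520 to 6297 in vehicle samples, where 48.2% of all genes were lower and 34.6% higher. The neutrophil sum was 369 to 440.3 RPKM in naive and 127 to 255 in vehicle samples, with 3 of 6 markers lower and 1 higher. The neutrophil list holds Csf3r, which is counted among the growth factor receptors as well. The dendritic cell sum was 357 to 377 and 214 to 262 RPKM, although 3 of 5 markers were higher and only Siglech, which microglia also express, was lower (log2 difference -3.31). The T, B and NK cell sum was 0.575 RPKM or less in naive and 3.74 to 13.99 in vehicle samples, with 1 marker tested, Gzma, and higher. The sums of these 3 lists did not overlap between the groups, nor did those of the oligodendrocyte lineage, 13.9 to 14.8 against 16.6 to 23.2 RPKM, and of astrocyte, neuron and endothelial cells, 12.3 to 15.3 against 19.9 to 30.4. Border-associated macrophage markers overlapped in sum, 53.7 to 79.9 and 58.03 to 175 RPKM, with 1 of 6 higher and 3 lower. No marker of these lists was listed at 0 in all samples. The part of the change in cell makeup in the differences of the 9 factors was not tested.

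**Figure D2:**
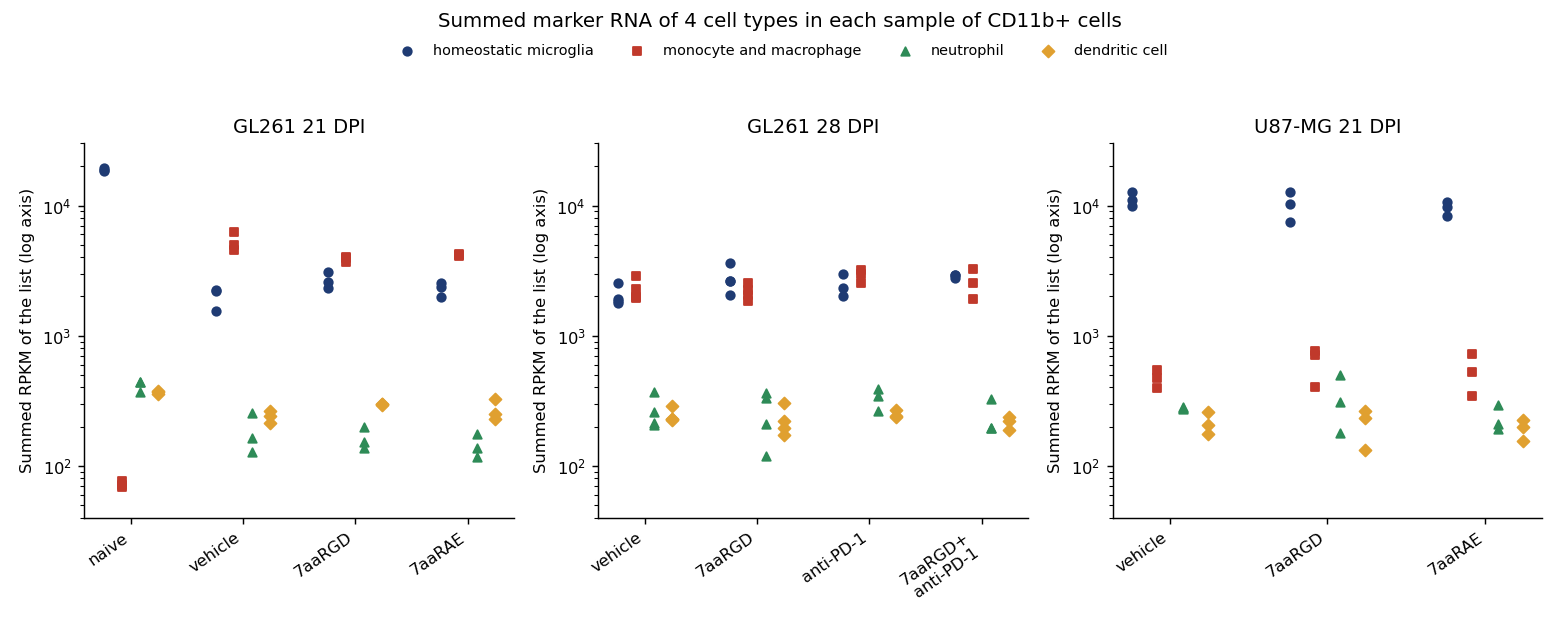
Summed RPKM (y axis, log scale) of 4 lists of marker genes in each sample of the 3 experiments, by group. The homeostatic microglia sum falls from 18550 or more in naive samples to 2246 or less in GL261 vehicle samples at 21 DPI and stays at 7497 or more in all U87-MG samples, and the monocyte and macrophage sum is 76.1 or less in naive samples.

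Relatives of the 9 factors passed in both directions, in a share near the 82.9% of all genes. Of 27 paralogues and partners, 18 were tested in vehicle against naive samples, of which 9 were higher and 7 lower, with a median log2 difference of 0.17 (11 higher and 7 or 5 lower of 19 under the other scalings). Among the higher ones, Irf7, the interferon-inducible relative of Irf8, rose from 2.58 ± 0.186 to 342 ± 51.7 RPKM (SD, n = 3) and Maff, a small MAF protein, from 0.283 ± 0.0553 to 13.1 ± 1.27. Runx3 rose from 0.840 ± 0.135 to 59.8 ± 10.3 RPKM, beside a Runx1 that did not change detectably. Among the lower ones, Sall2 fell from 11.96 ± 0.544 to 1.12 ± 0.126 RPKM (log2 difference -2.62) and Cebpd from 26.9 ± 0.960 to 9.82 ± 0.767 (-1.37), in the opposite direction to Cebpb. Sall4 and Nrl were listed at 0 in all 12 samples of this table.

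Of 28 other transcription factors of macrophages, 26 were tested, of which 10 were higher and 12 lower (12 and 12 of 27 under the other scalings), again near the share of all genes. Bhlhe40, an activation-linked repressor, rose by 4.76 on the log2 scale and Nr1h3, the oxysterol receptor LXRα, by 4.25. The lower ones included Fli1 (log2 difference -1.39), Ets1 (-2.85), Tal1 (-2.82) and Lyl1 (-1.26), all partners in blood cell programs. Of 13 growth factor receptors and myeloid genes downstream of PU.1, 4 were higher and 7 lower. Csf2ra, a receptor chain for GM-CSF, rose by 2.71 and its partner Csf2rb by 2.38, while Csf1r, the receptor on which microglia depend, had a log2 difference of -1.95, and the TGF-β receptors Tgfbr1 and Tgfbr2 of -2.40 and -1.87.

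The second comparison asked whether the integrin-blocking peptide alters these factors in GL261 gliomas at 21 DPI. None of the 9 passed the threshold for 7aaRGD against vehicle, where 14 of 9441 genes did (0.148%). At an unadjusted p under 0.05 limma gave 3 of the 9 and 1280 of all genes. The same 3, Sall3, Mef2c and Runx1, were higher in every 7aaRGD sample than in every vehicle sample, beside 17.6% of all genes whose groups did not overlap. The median log2 difference was 0.13 over the 9 and 0.02 over all genes.

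Sall3 was 4.32, 3.81 and 4.95 RPKM with 7aaRGD, 3.35, 3.06 and 3.00 with vehicle and 3.36, 2.78 and 4.23 with 7aaRAE. The 7aaRGD samples lay above all vehicle samples and overlapped the 7aaRAE samples. The log2 difference from vehicle was 0.37 ± 0.12 (SE, limma adjusted p = 0.257), and the mean stood at 14.6% of naive, against 10.5% for vehicle and 11.6% for 7aaRAE. Mef2c was 6.55, 5.36 and 7.69 RPKM with 7aaRGD and 5.17, 4.92 and 5.96 with 7aaRAE, with a log2 difference of 0.38 ± 0.13 between 7aaRGD and vehicle (SE, limma adjusted p = 0.271). Runx1 was 14.3, 15.1 and 14.6 RPKM with 7aaRGD and 14.2, 14.9 and 13.3 with 7aaRAE, with a log2 difference of 0.16 ± 0.06 from vehicle (SE, limma adjusted p = 0.293).

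Sall1 was 32.3, 26.6 and 39.1 RPKM with 7aaRGD and 27.5, 23.4 and 34.4 with 7aaRAE, and both groups overlapped the vehicle samples. The log2 difference from vehicle was 0.35, with a 95% interval from -0.02 to 0.71, for 7aaRGD (limma adjusted p = 0.384) and 0.15, from -0.21 to 0.51, for 7aaRAE (0.833). Both peptide groups remained far below naive samples, at 11.4% and 9.92% of the naive mean of Sall1. Spi1, Irf8, Maf, Mef2a and Cebpb overlapped between 7aaRGD and vehicle samples, with log2 differences from -0.06 to 0.13. Cebpb varied widely within groups, from 405 to 585 RPKM with 7aaRGD and from 316 to 701 with 7aaRAE.

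For 7aaRAE against vehicle none of the 9 and none of the 9441 genes passed (0%), the groups of all 9 overlapped, beside 12.6% of all genes whose groups did not, and limma gave 0 of the 9 and 601 of all genes at an unadjusted p below 0.05. Setting 7aaRGD against 7aaRAE bears on the motif by which the peptides differ. It gave none of the 9 and none of all genes (0%) past the threshold, with 1 of the 9, Sall3, and 521 of all genes at an unadjusted p under 0.05. The log2 difference of Sall3 was 0.27 with a 95% interval from 0.01 to 0.54 (limma adjusted p = 0.895). Mef2a alone did not overlap, lower with 7aaRGD by 0.07, beside 11.4% of all genes that did not overlap. For Sall1 the interval of the difference between the peptides ran from -0.17 to 0.56 and for Mef2c from -0.05 to 0.52, so differences of that size were not resolved. No related factor or marker gene of any list passed the threshold in the 3 comparisons at 21 DPI, and the homeostatic microglia sum was 2314 to 3107 RPKM with 7aaRGD and 1989 to 2551 with 7aaRAE, beside 1538 to 2246 with vehicle.

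The third comparison asked how the factors respond at 28 DPI to 7aaRGD, to anti-PD-1 and to both. The 3 treated groups share the same 4 vehicle samples, so their differences from vehicle are not independent of each other. With 7aaRGD none of the 9 factors passed the threshold, where 63 of 9737 genes did (0.647%), and limma gave 2 of the 9 and 1421 of all genes at an unadjusted p under 0.05. With anti-PD-1 alone Irf8 passed, where 23.1% of all genes did and 10.8% were higher. With the combination Sall1 and Irf8 passed, both higher, where 43.3% of all genes passed and 17.5% were higher. Of the 4215 genes that passed with the combination 1707 were higher and 2508 lower, a split that became 2224 to 2066 and 2165 to 2122 under the other 2 scalings. A count of 2 in 9 is thus below the share of all genes that passed in either direction and near the share that were higher. The median log2 difference of the 9 was 0.06, against -0.05 over all genes.

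Sall1 was 27.9, 38.03, 27.7 and 26.9 RPKM in the 4 vehicle samples, 49.7, 31.2, 39.96 and 63.9 in the 4 with 7aaRGD, 31.1, 48.7 and 63.7 in the 3 with anti-PD-1 and 61.9, 48.04 and 58.05 in the 3 with both. The combination samples lay above all vehicle samples, while the single treatments spread over a wider range and overlapped vehicle. The means were 30.2 ± 5.26 (SD, n = 4), 46.2 ± 14 (SD, n = 4), 47.8 ± 16.3 (SD, n = 3) and 56.0 ± 7.14 RPKM (SD, n = 3). The log2 difference of the combination from vehicle was 0.88 ± 0.24 (SE), with a 95% interval from 0.36 to 1.40 (limma adjusted p = 0.0102). It was 0.56 for 7aaRGD (adjusted p = 0.265) and 0.60 for anti-PD-1 (adjusted p = 0.0884), the latter 0.88 (adjusted p = 0.0228) without the first anti-PD-1 sample.

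Irf8 was 67.7, 56.3, 68.2 and 69.2 RPKM with vehicle, 73.2, 79.5, 73.1 and 67.05 with 7aaRGD, 82.4, 79 and 73.6 with anti-PD-1 and 86.95, 77.3 and 88.2 with both. Every sample with anti-PD-1, alone or combined, lay above every vehicle sample. The log2 difference from vehicle was 0.26 ± 0.09 (SE, limma adjusted p = 0.0415) for anti-PD-1, 0.36 ± 0.09 (SE, adjusted p = 0.00405) for the combination and 0.16 ± 0.08 (SE, adjusted p = 0.358) for 7aaRGD. The second vehicle sample had the highest Sall1 and the lowest Irf8 of its group, and without it the combination differed by 0.99 for Sall1 (adjusted p = 0.00862) and by 0.29 for Irf8 (adjusted p = 0.0103). The anti-PD-1 call of Irf8 was lost without that sample (0.19, adjusted p = 0.106), without the first vehicle sample (adjusted p = 0.0601) and without the first or second anti-PD-1 sample (adjusted p = 0.132 and 0.116).

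Sall3 was 4.88, 6.99, 5.17 and 3.71 RPKM with vehicle, 8.40, 4.14, 6.24 and 10.7 with 7aaRGD, 4.27, 7.36 and 6.63 with anti-PD-1 and 7.70, 6.76 and 9.23 with both. One vehicle sample lay within the range of the combination, and the log2 difference of 0.54 had a 95% interval from 0.0018 to 1.08 (limma adjusted p = 0.097). Runx1 was 15.6, 15.2, 13.5 and 12.7 RPKM with vehicle and 12.1, 11.2 and 12.1 with the combination, lower in every sample, with a log2 difference of -0.25 ± 0.13 (SE, limma adjusted p = 0.123). With 7aaRGD Runx1 was 15.6, 10.9, 13.3 and 17.9 and with anti-PD-1 11.4, 12.3 and 13.01 RPKM, and both overlapped vehicle. In groups that do not overlap, the counts were 1 of the 9 factors for anti-PD-1, against 32.4% of all genes, 3 for the combination, against 48.8%, and 0 for 7aaRGD, against 8%.

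The MEF2 factors did not pass in any comparison with vehicle. Mef2c was 5.88 to 7.94 RPKM with vehicle, 6.85 to 8.81 with 7aaRGD, 5.84 to 7.75 with anti-PD-1 and 7.41 to 8.18 with both. Mef2a was 18.5, 16.1, 21.5 and 21.3 RPKM with 7aaRGD, where 3 of 4 samples lay above the vehicle range of 15.3 to 18.3, and the log2 difference was 0.19 ± 0.09 (SE, limma adjusted p = 0.325). Against 7aaRGD alone the combination had a Mef2a difference of -0.22 ± 0.09 (SE, adjusted p = 0.0887). Maf, Spi1 and Cebpb overlapped in all comparisons. Spi1 kept between 157 and 203 RPKM over all 14 samples, and Cebpb ranged from 133 to 361 RPKM within the anti-PD-1 group and from 140 to 367 within the combination, with log2 differences from vehicle of -0.43 and -0.46 (adjusted p = 0.418 and 0.317).

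Against the single treatments the combination did not differ in any factor past the threshold, and the groups of all 9 overlapped, beside 21.5% of all genes that did not overlap against anti-PD-1 and 40.4% against 7aaRGD. Against anti-PD-1 none of the 9 passed, where 4 genes did (0.0411%), or 0 to 26 with 1 sample left out (26 without the second combination sample), and limma gave 0 of the 9 and 1461 of all genes at an unadjusted p under 0.05. The interval of the Sall1 difference ran from -0.28 to 0.83. Against 7aaRGD none of the 9 passed, where 36.6% of all genes did (1269 higher and 2292 lower, or 1725 to 1605 and 1671 to 1664 under the other scalings), with 2 of the 9, Mef2a and Irf8, and 4510 of all genes at an unadjusted p under 0.05. Irf8 differed there by 0.20 ± 0.09 (SE, limma adjusted p = 0.084), and by 0.27 (adjusted p = 0.0253 and 0.0331) under the other 2 scalings, by which it passed. The effect of the combination beyond the sum of both single effects passed in none of the 9 factors and none of the 9737 genes (0%), with 0 and 794 at an unadjusted p under 0.05. It was -0.29 for Sall1, with an interval from -1.03 to 0.45, and -0.06 for Irf8, from -0.32 to 0.20.

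**Figure D3:**
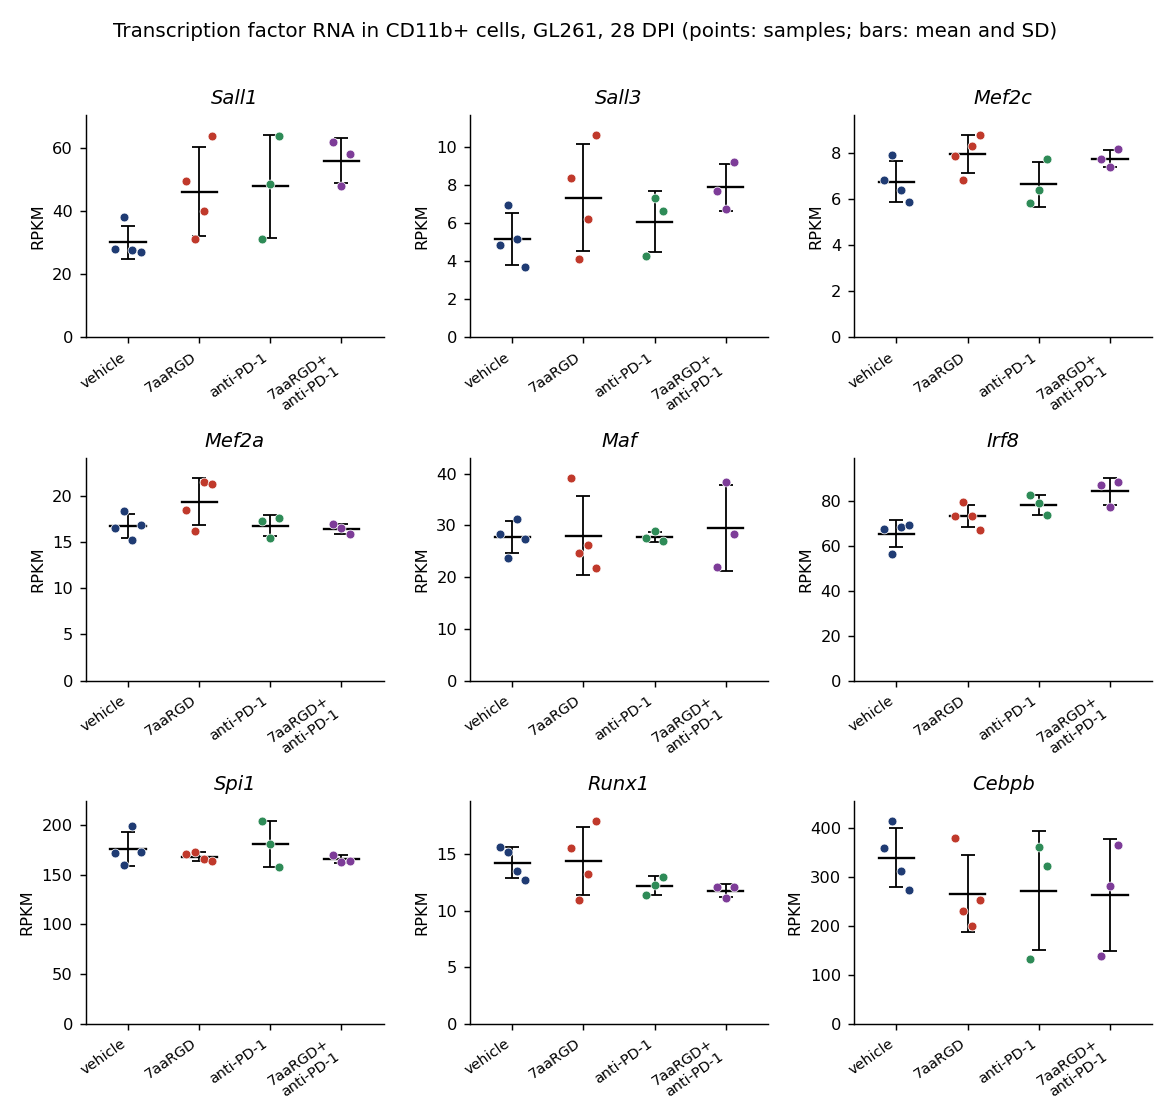
RPKM (y axis, linear, from 0) of the 9 factors in each CD11b+ sample of the GL261 experiment at 28 DPI, by treatment (x axis); points are samples, lines the mean and bars the SD, n = 4 for vehicle and 7aaRGD and 3 for anti-PD-1 and the combination. The combination samples sit at 48.0 to 61.9 for Sall1 and at 77.3 to 88.2 for Irf8, above all vehicle samples.

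Fewer related factors passed at 28 DPI. Of the 20 paralogues and partners tested, 4 were higher and 4 lower with the combination, no larger a share than the 43.3% of all genes that passed. That comparison holds for the main scaling only. Under both other scalings 6 were higher and 4 lower, where 4290 of 9739 and 4287 of 9741 genes passed. Irf1 rose from 54.7 ± 14.4 RPKM with vehicle (SD, n = 4) to 144 ± 31.1 (SD, n = 3), a log2 difference of 1.39 ± 0.20 (SE, limma adjusted p = 0.000151), beside Irf8. Irf4 rose by 0.86, Maff by 0.64 and Irf7 by 0.64 on the log2 scale. Cebpa, the relative of Cebpb that drives early myeloid differentiation, fell from 169 ± 11.8 to 115 ± 19.3 RPKM (-0.56), and Runx3 (-0.76) and Mafg (-0.41) fell too. With anti-PD-1 alone Irf1 rose by 1.11 and Irf7 by 0.51, the latter with an adjusted p of 0.0518 under 1 of the other scalings, and Cebpa fell by 0.37. Of the 26 other macrophage factors tested, 5 were higher and 0 lower with the combination, where 43.3% of all genes passed and 17.5% were higher. Among the 5 were Egr2 (1.72), Smad3 (0.72), Zeb2 (0.44) and Elf1 (0.25). Under the other scalings 9 were higher and 0 lower, where 2224 of 9739 and 2165 of 9741 genes were higher. With anti-PD-1, where 23.1% of all genes passed and 10.8% were higher, 4 were higher and 0 lower. With 7aaRGD alone no factor of either list passed.

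Markers of several cell types differed beside Sall1 and Irf8, and their counts are set against the share of all genes that passed. That share was 43.3% with the combination (17.5% higher), 23.1% with anti-PD-1 (10.8% higher) and 0.647% with 7aaRGD. With the combination 7 of 12 homeostatic microglia markers were higher and 0 lower, and their summed level was 2793 to 2949 RPKM, beside 1779 to 2544 with vehicle. With 7aaRGD 1 of 12 was higher, Cx3cr1, by 0.46 (adjusted p = 0.0516 and 0.0626 under the other scalings), with sums of 2044 to 3625, and with anti-PD-1 3 of 12, with sums of 2018 to 2971. Of the 12 monocyte and macrophage markers 5 were higher with the combination and 5 with anti-PD-1, and their sums of 1926 to 3235 and 2532 to 3218 RPKM overlapped those of vehicle, 1946 to 2898. Of the dendritic cell markers 3 of the 4 tested were higher and 1 lower with the combination, with sums of 190 to 239 against 223 to 287 RPKM. The higher ones included Siglech, which microglia also express and which is counted in the homeostatic microglia list too. The lower one, Itgax, differed by -0.61 and did not pass under the other scalings (adjusted p = 0.0639 and 0.0601). T, B and NK cell markers summed to 15.2 to 53.5 RPKM with the combination, 1.92 to 41.5 with anti-PD-1 and 2.16 to 7.77 with vehicle, and 2 of the 3 tested were higher with the combination. Of the oligodendrocyte lineage markers 3 of the 6 tested were lower with the combination, Sox10 (-1.60), Olig1 (-1.77) and Olig2 (-1.39), and 1 was higher, Mag (0.36). Their sums were 22.2 to 24.4 RPKM with the combination and 21.2 to 28.4 with anti-PD-1, both below the 29.7 to 44.6 of vehicle. The astrocyte, neuron and endothelial cell list had 2 of 3 higher, Pecam1 (1.22) and Kdr (0.41), with sums of 14.5 to 17.6 RPKM against 8.89 to 17.2. Both were listed as endothelial markers, but the study also links Pecam1 to the migration of leukocytes. Border-associated macrophage markers had 1 of 4 lower, Mrc1 (-1.29), and neutrophil markers 1 of 6 higher and 1 lower, Csf3r (0.84) and Retnlg (-2.86). The sums of both lists overlapped those of vehicle, and both counts were below the share of all genes. No marker of these lists was listed at 0 in all 14 samples. The part of these cells in the Sall1 and Irf8 differences was not tested.

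The fourth comparison asked the same of the peptides in U87-MG gliomas. The vehicle samples of this model held the microglial factors at higher levels than the GL261 vehicle samples, a comparison across separately normalized tables, hosts and tumor lines that was not tested. Sall1 was 132, 125 and 103 RPKM with vehicle, Sall3 12.6, 12.2 and 9.76, Mef2c 21.6, 22.2 and 20.6 and Mef2a 29.2, 27.6 and 30.8. The ratio of Mef2c to Mef2a was 0.738 ± 0.0670 (SD, n = 3), between 0.669 and 0.803 in the samples. Cebpb was 162, 133 and 94.6 RPKM, and Spi1, at 149 ± 3.52 (SD, n = 3), had the highest mean, followed by Cebpb, Sall1, Irf8, Maf, Mef2a, Mef2c, Runx1 and Sall3. In that order Spi1, Cebpb and Sall1 overlapped between neighbors. The homeostatic microglia sum was 9896 to 12620 RPKM and the monocyte and macrophage sum 399 to 547.

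None of the 9 factors passed the threshold for 7aaRGD against vehicle, where none of 9665 genes did (0%), for 7aaRAE against vehicle, where 1 gene did (0.0103%), or for 7aaRGD against 7aaRAE (0%). At an unadjusted p under 0.05 limma gave 1, 2 and 1 of the 9 and 364, 746 and 327 of all genes. Both peptides were compared with the same 3 vehicle samples. Runx1 was 15.7, 13.3 and 13.8 RPKM with vehicle, 19.5, 20.4 and 20.1 with 7aaRGD and 19.7, 22.4 and 21.5 with 7aaRAE. Both peptide groups lay above all vehicle samples and overlapped each other. The log2 difference from vehicle was 0.46 ± 0.08 (SE, limma adjusted p = 0.730) for 7aaRGD and 0.54 ± 0.08 (SE, adjusted p = 0.112) for 7aaRAE, and the peptides differed by -0.08, with a 95% interval from -0.27 to 0.11.

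Irf8 was 87.3, 88.5 and 79.96 RPKM with vehicle, 81.99, 78.04 and 79.96 with 7aaRGD and 71.5, 66.1 and 71.3 with 7aaRAE. The 7aaRAE samples lay below all others, by 0.29 ± 0.08 from vehicle (SE, limma adjusted p = 0.362) and by 0.20 ± 0.08 from 7aaRGD (SE, adjusted p = 1.00). Spi1 was likewise lower in all 7aaRAE samples, 137, 137 and 136 RPKM, than in the vehicle samples, 152, 145 and 149.7, or the 7aaRGD samples, 144, 149.7 and 154, with log2 differences of -0.12 (adjusted p = 0.676) from vehicle and 0.13 between 7aaRGD and 7aaRAE. In groups that do not overlap, the counts were thus 1 of the 9 for 7aaRGD against vehicle (10.8% of all genes), 4 for 7aaRAE against vehicle (16.5%) and 2 for 7aaRGD against 7aaRAE (6.47%).

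Sall1 was 134, 57.7 and 116 RPKM with 7aaRGD and 103, 61.3 and 80.4 with 7aaRAE. A single 7aaRGD sample was far below the others. The highest 7aaRAE sample lay just under the lowest vehicle sample, both 102.8 RPKM when rounded. Sall1 is thus among the 4 factors whose 7aaRAE and vehicle groups did not overlap. The log2 difference was -0.30, with a 95% interval from -0.98 to 0.37, for 7aaRGD (limma adjusted p = 0.941) and -0.57, from -1.25 to 0.10, for 7aaRAE (adjusted p = 0.670). The 7aaRGD sample with the lowest Sall1 also had the lowest Sall3, 4.43 RPKM, and the lowest homeostatic microglia sum, 7497. Mef2c, Mef2a, Maf and Cebpb overlapped in all comparisons, with log2 differences from -0.21 to 0.27. No related factor or marker gene of any list passed the threshold in this model, and the lists held 1 marker listed at 0 in all 9 samples, Cd3g of T cells.

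**Figure D4:**
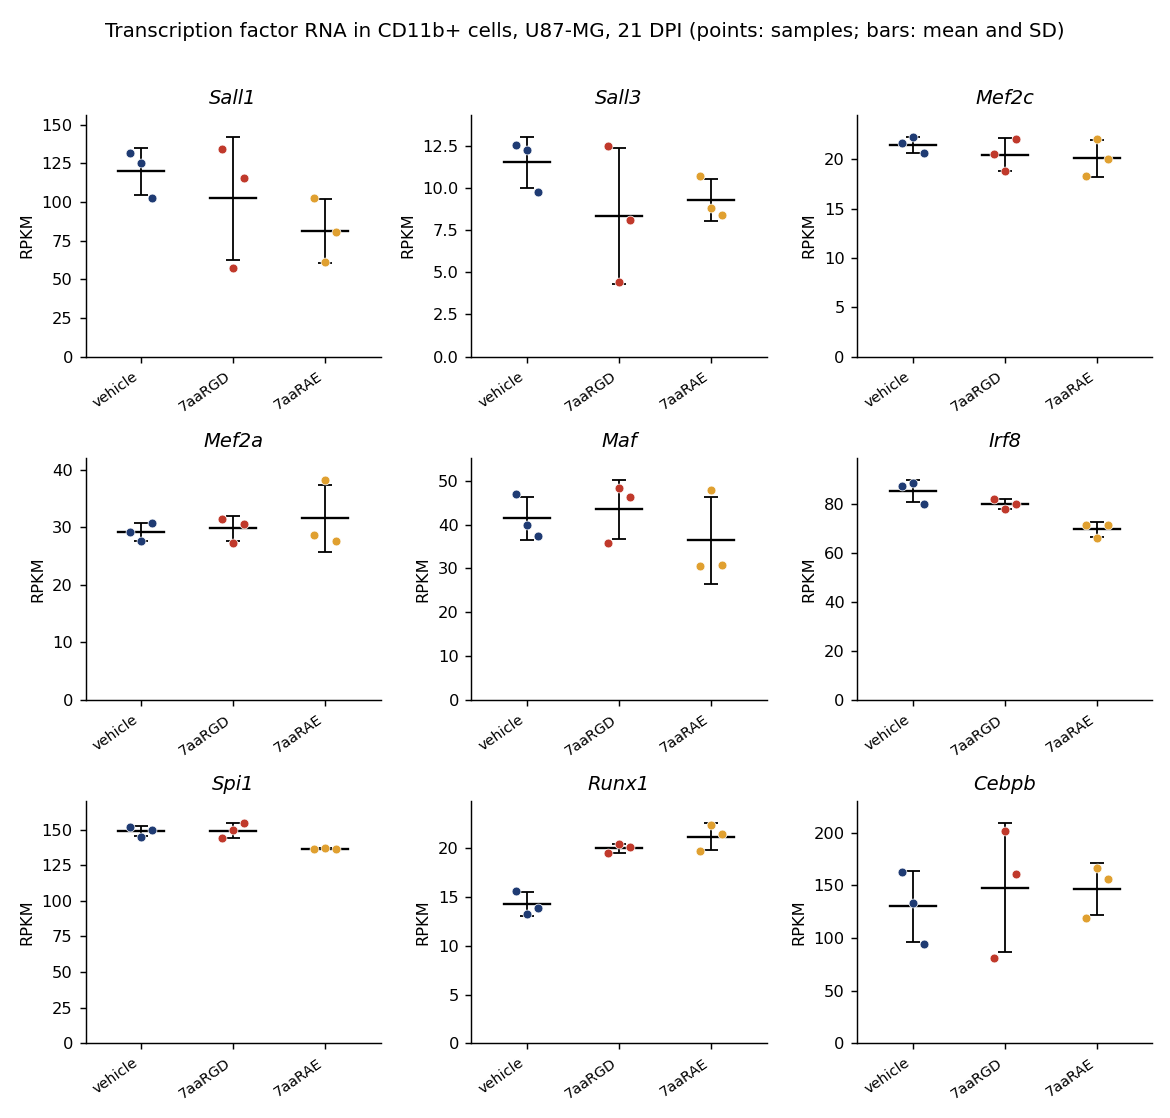
RPKM (y axis, linear, from 0) of the 9 factors in each CD11b+ sample of the U87-MG experiment at 21 DPI, by treatment (x axis: vehicle, 7aaRGD, 7aaRAE); points are samples, lines the mean and bars the SD, n = 3. Runx1 sits at 19.5 to 22.5 in both peptide groups and at 13.3 to 15.7 with vehicle, and Sall1 spreads from 57.7 to 134.

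**Figure D5:**
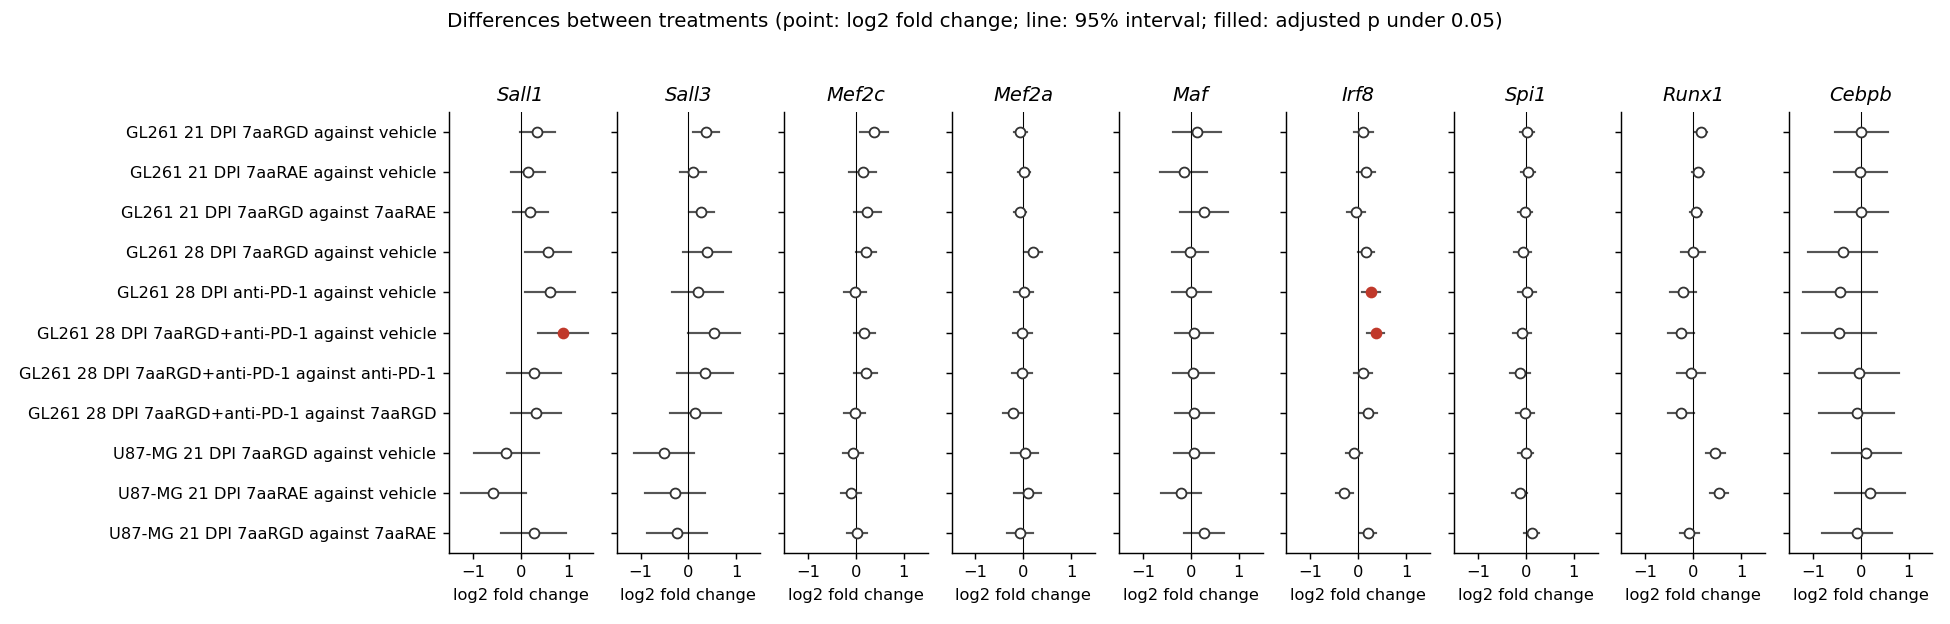
Log2 difference (x axis) of each factor between groups in the treatment comparisons of the 3 experiments, with its 95% interval; filled points have a limma adjusted p under 0.05. Filled points are Irf8 with anti-PD-1 (0.26) and, with the combination against vehicle, Irf8 (0.36) and Sall1 (0.88).

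Set side by side over the 35 samples of the 3 tables, Spi1 lay between 136 and 232 RPKM, Irf8 between 56.3 and 106 and Runx1 between 10.9 and 22.5, while Sall1 ran from 22.3 to 291 and Cebpb from 38.4 to 701. The highest value was 1.70 times the lowest for Spi1, 1.88 times for Irf8 and 2.05 times for Runx1. As such a ratio the span was wider for Mef2a (2.86), Maf (7.37), Mef2c (8.41), Sall3 (11.3), Sall1 (13.1) and Cebpb (18.3). The ratio of paralogues was likewise not the same in each table. Sall3 stood at 0.0959 ± 0.00151 of Sall1 in U87-MG vehicle samples (SD, n = 3), beside 0.104 in the naive samples, and at 0.171 ± 0.0224 in the GL261 vehicle samples at 28 DPI (SD, n = 4). Mef2c stood at 0.405 ± 0.0372 of Mef2a in the latter and at 0.474 ± 0.0367 with the combination (SD, n = 3), every combination sample above every vehicle sample, at 0.448 to 0.516 against 0.350 to 0.434. This difference was not tested, and both groups lay below every naive sample.

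Genes with a like pattern were sought among the 9070 protein-coding genes tested in all 3 tables, by the lowest of the 3 Pearson correlations of log2(RPKM + 1) over the 12, 14 and 9 samples. Samples of a table share its normalization and the 21 DPI table holds the naive samples, so these values are descriptions. Sall1 was most like Capn3 (0.96), Tjp1 (0.93) and Snn (0.92), and Sall3 was most like Sgce (0.89) and Tjp1 (0.87). Mef2a came closest to Tacc1 (0.89), Cdc73 (0.85) and Tbl1xr1 (0.83), and Mef2c to Clasp2 (0.77), Tmem64 (0.74) and Gpr155 (0.68). For Spi1 the nearest were Cnn2 (0.79), Gpsm3 (0.76) and Rara (0.73), for Maf Mfsd11 (0.77), Il10rb (0.73) and Yy1 (0.72), and for Irf8 Fhod1 (0.76), Gfpt1 (0.74) and Tmem50b (0.74). For Cebpb they were Rassf3 (0.67), Dusp1 (0.62) and Bri3 (0.61), and for Runx1 Slc38a2 (0.62), Elovl5 (0.61) and Arhgef7 (0.61).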

How the data were processed

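CD11b+ cells were sorted by flow cytometry and stranded poly-A libraries sequenced. Per the methods of the study, reads were trimmed with Trimmomatic, aligned to mm10 with STAR and counted per gene with HTSeq (0.11.1 per the labels), and the deposited tables hold normalized values. The authors' unit and constant are not described: over the annotated exon lengths the deposited values, less 2, add up as RPKM do, and they are treated as RPKM. All value columns were assigned to labelled groups; the U87-MG columns carry no sample numbers. Values under 0 after subtraction were set to 0.

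Log2(RPKM + 1) of protein-coding genes whose mean reached 1 RPKM was tested with limma 3.58.1 (R 4.3.3; lmFit, eBayes with trend) and Benjamini-Hochberg adjustment, the tumor-bearing groups of a table together and naive with vehicle alone. The method was also run on simulated data whose noise was independent between samples. Those data do not hold the lacking dimension of the GL261 samples, so they do not check the adjusted p values there. A planned exact permutation test for factors under the filter was not needed. The study's own test, NOISeq, was not run. Samples are pools of 2 animals or, at 28 DPI, single animals.

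The members and gene lists were chosen with earlier results of these data known. All 9 factors are named, with at most 4 genes per list and direction of a comparison by adjusted p, the 3 most alike genes of each factor and 5 marker genes. A few genes that this rule selects are not reported here. Siglech is in 2 lists, as is Csf3r. Pseudocount, filter, scaling, samples fitted, replicate block and each sample left out were varied. Depth is unknown, so no counting error is given.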

Additional observations from a re-analysis of the deposited data

Results flagged for a closer look

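In the groups of 4 samples at 28 DPI, 2 of 18 values of a factor in a group stood apart from the other 3 by Dixon's ratio, which chance gives in about 1 of 20 groups. Both came from the second vehicle sample. Its Sall1 was 38.03 RPKM, above the other vehicle samples at 26.9 to 28.0, and its Irf8 was 56.33 RPKM, below the others at 67.7 to 69.2. The same sample had the highest homeostatic microglia sum of the vehicle group, 2544 against 1779 to 1903 RPKM. Without it the combination differed from vehicle by 0.99 in Sall1 and by 0.29 in Irf8 on the log2 scale (limma adjusted p = 0.00862 and 0.0103), and anti-PD-1 by 0.19 in Irf8 (adjusted p = 0.106). Why it differs was not tested.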

How the results depend on the processing

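Over 1968 values of the 9 factors under other settings, 1834 kept their direction and side of the threshold, 9 calls were lost, 7 gained, and 118 differences that were not called changed sign. The counts of factors were 8, 0, 0 and 0 in the 21 DPI GL261 comparisons with any sample left out, and 0 in every U87-MG fit. Vehicle against naive gave 7 under both other scalings, which took Irf8. For anti-PD-1 against vehicle the count of 1, Irf8, became 2 at an adjusted p under 0.1, 0 with no filter, 0 with the 2 groups alone, 0 with the replicate block and 0 to 1 with 1 sample left out. Irf8 passed there in 10 of 17 settings, with adjusted p from 0.0358 to 0.132, and Sall1 in 1, without the first anti-PD-1 sample (0.88, adjusted p = 0.0228), where Irf8 did not. For the combination against vehicle the count of 2 became 4 with the 2 groups alone (Sall1, Sall3, Irf8 and Runx1). Sall1 passed in 17 of 17 settings (adjusted p 0.00106 to 0.0441), as did Irf8 (0.00158 to 0.022). For the combination against 7aaRGD the count of 0 became 2 at an adjusted p under 0.1, 1 under median-of-ratios scaling, 1 under TMM-like scaling and 0 to 2 with 1 sample left out, the 2 being Mef2a (-0.29) and Runx1 (-0.37) without the second 7aaRGD sample.

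With sample numbers as a replicate block the combination differed by 0.94 for Sall1 (adjusted p = 0.0205) and 0.36 for Irf8 (0.0144), and anti-PD-1 by 0.25 for Irf8 (0.0879). Same-numbered samples deviated together (correlation over 0.1) in 1 of 9 pairs at 21 DPI and 3 of 19 at 28 DPI. Their correlations ran from -0.77 to 0.12 and from -0.50 to 0.37. These values cannot decide whether the numbers are pairs, because removal of a shared component before deposit would hide pairing. The main fits did not take the numbers as pairs. No paired analysis was possible for U87-MG because its columns carry no numbers. Counts over all genes were less stable. The 63 genes with 7aaRGD at 28 DPI became 0 to 1 with any one sample left out, and the 14 at 21 DPI became 0 to 125, with 125 without the third vehicle sample. The 4 for the combination against anti-PD-1 became 0 to 26, with 26 without the second combination sample. Anti-PD-1 against vehicle gave 1355 genes in place of 2245 without the second anti-PD-1 sample. These comparisons cannot show small shifts of a factor, and the causes were not tested.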
